A study of Mus musculus with 2 samples.

Results

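Cycling cells were taken here as cells of any lineage that carried RNA of genes used in late S phase, G2 and mitosis. A cell was a member where the summed UMIs (unique molecular identifiers, tags that mark single RNA molecules) of Mki67, Birc5, Ube2c, Top2a, Ccna2 and Cdk1 came to 2 or more and at least 2 of these 6 genes were detected. The rule was applied to barcodes with 200 or more detected genes and no more than 5% of their UMIs from mitochondrial genes. It chose 86 of 8664 cells, of which 21 of 3378 were in the control library and 65 of 5286 in the library from irradiated (IR) glands.

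The cells came from parotid glands, the salivary glands that make serous saliva, of wild-type female C3H mice. IR mice received 6 Gy per day on 5 days, 30 Gy in total, to the head and neck at 6 to 10 weeks of age, and their glands were taken 10 months later beside those of non-irradiated controls. Glands of 2 mice per group were pooled before dissociation, so each group was 1 droplet library (10x Chromium) without a replicate, the mice within a library could not be told apart, and no test between groups was possible. Intervals below are exact 95% intervals that cover counting error only, and "others" are the cells of the same group that the rule did not choose. The control library held 22707876 UMIs in 5550 barcodes and the IR library 23890757 UMIs in 7793 barcodes. Among the kept cells 5 control and 7 IR barcodes occurred in both libraries, and none of these was a cycling cell.

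A dividing cell copies its DNA in S phase and parts the copies in mitosis, and many of the genes needed for each step are transcribed only shortly before it. In an adult salivary gland few epithelial cells divide at any time, while lymphocytes that meet antigen can divide fast, T-cells as they expand and B-cells above all in germinal centres. Only cells with RNA of cycle genes at the moment of dissociation can be seen, so cells in early G1 are largely missed. Members with few UMIs of these genes need not all be dividing.

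The 6 genes act at different points of the cycle. Cdk1 (chr10:69335146-69352938, minus strand, GENCODE M21 on GRCm38) is the kinase that drives entry into mitosis, and Ccna2 (chr3:36564865-36572150, minus strand) encodes cyclin A2, a partner of Cdk1 in G2. Top2a (chr11:98992943-99024189, minus strand) encodes the topoisomerase that untangles sister DNA, and Mki67 (chr7:135689784-135716361, minus strand) the Ki-67 protein that coats mitotic chromosomes. Birc5 (chr11:117849251-117855743, plus strand) encodes survivin, a subunit of the chromosomal passenger complex. Ube2c (chr2:164769898-164778822, plus strand) encodes the ubiquitin-conjugating enzyme of the anaphase-promoting complex.

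Promoters of genes of G2 and mitosis are known to share the letters TTTGAA (the cell cycle genes homology region, CHR) and CCAAT, while those of S phase genes hold E2F letters, here TTTCCCGC, TTTGGCGC, TTCCCGCC or TTTCGCGC. These were searched on both strands in RefSeq windows (GRCm38.p6) from 250 bases before to 50 after each start. TTTGAA occurred in 17.9% of 32851 windows, in 4 of the 5 windows of the rule genes (no window matched Ccna2), in 70.8% of 48 windows of a list of mitosis genes and in 15.8% of 38 windows of a list of DNA replication genes. CCAAT occurred in 37.4% of all windows, 79.2% of the mitosis windows and 60.5% of the replication windows. E2F letters occurred in 3.49% of all windows, in 1 of the 5 windows of the rule genes (Cdk1, at −131 from the start, in lower case below), 4.17% of the mitosis windows and 42.1% of the replication windows. The first 4 stretches below are rule genes, with TTTGAA and CCAAT matches of either strand in capitals, and the last is Mcm6, a subunit of the replicative helicase and the replication gene with E2F letters that had most UMIs in cycling T-like cells, with its 3 E2F matches in capitals, of which the pair farthest from the start overlap. Each is written 5′ to 3′ on the strand of the gene and ends before its first annotated base.
Mki67, chr7:135716380-135716579, minus strand: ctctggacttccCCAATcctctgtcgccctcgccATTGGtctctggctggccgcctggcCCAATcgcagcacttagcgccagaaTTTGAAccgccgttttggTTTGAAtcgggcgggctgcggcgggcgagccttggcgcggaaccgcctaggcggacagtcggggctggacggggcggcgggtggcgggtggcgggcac
Top2a, chr11:99024190-99024389, minus strand: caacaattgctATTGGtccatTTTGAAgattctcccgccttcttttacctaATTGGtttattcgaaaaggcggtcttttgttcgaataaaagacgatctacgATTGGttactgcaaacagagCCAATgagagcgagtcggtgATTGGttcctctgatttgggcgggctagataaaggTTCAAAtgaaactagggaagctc
Cdk1, chr10:69352939-69353112, minus strand: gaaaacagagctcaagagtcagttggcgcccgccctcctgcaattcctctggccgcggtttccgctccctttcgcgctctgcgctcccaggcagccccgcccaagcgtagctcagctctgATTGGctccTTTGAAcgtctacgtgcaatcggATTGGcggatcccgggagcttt
Birc5, chr11:117849037-117849236, plus strand: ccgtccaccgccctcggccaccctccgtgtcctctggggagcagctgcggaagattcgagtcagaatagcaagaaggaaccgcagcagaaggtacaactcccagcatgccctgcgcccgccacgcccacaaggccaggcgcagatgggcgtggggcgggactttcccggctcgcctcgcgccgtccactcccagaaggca
Mcm6, chr1:128359706-128359905, minus strand: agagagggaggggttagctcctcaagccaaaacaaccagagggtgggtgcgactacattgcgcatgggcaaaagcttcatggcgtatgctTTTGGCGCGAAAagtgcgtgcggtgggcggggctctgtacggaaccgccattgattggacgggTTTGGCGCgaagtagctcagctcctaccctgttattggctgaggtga
Counted from the RefSeq start, TTTGAA lay at −116 and −98 in Mki67 and at −179 and −23 in Top2a. In Cdk1 it lay at −71 and, past the stretch shown, at −15, and in Ube2c (not shown) at −29. The Birc5 window held neither TTTGAA nor CCAAT, which says only that these letters were not in this window.

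The values of the 6 genes chose the cells, so they are a description. In the control library Top2a had 101 UMIs in 15 of the 21 cycling cells, Mki67 91 UMIs in 15, Birc5 61 in 15, Ube2c 60 in 13, Ccna2 44 in 12 and Cdk1 22 in 9. In the IR library Mki67 had 329 UMIs in 47 of the 65, Top2a 305 in 46, Birc5 271 in 52, Ube2c 242 in 43, Cdk1 103 in 37 and Ccna2 73 in 30. No gene alone was seen in every cycling cell. The few chosen cells held most of the RNA of these genes: between 66.4% (Top2a) and 100% (Ccna2) of each gene's UMIs in the control library, and between 81.6% (Top2a) and 91.7% (Ube2c) in the IR library. All 6 genes were found together in 5 control and 15 IR cells, and exactly 2 in 7 and 16. The summed UMIs of the 6 genes ran from 2 through a median of 7 to 98 in the control library and from 2 through 8 to 144 in the IR library.

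The level of 55 other mitosis genes on both sides of the threshold is given as a description. Cells just inside, with 2 UMIs from 2 rule genes, had a level of 2201 CPM (UMIs per 1000000 UMIs of the group) on these genes in the control library (1474 to 3162, 6 cells) and 707 in the IR library (555 to 888, 11 cells). Cells just outside, with 2 or more UMIs from 1 rule gene, had 112 (73.8 to 163, 17 cells) and 754 (560 to 994, 11 cells). Cells with 1 rule UMI had 384 and 466, cells with none 232 and 329, and cycling cells with 10 or more rule UMIs had 5496 (9 cells) and 8589 (29 cells). In the IR library the intervals on both sides of the threshold overlapped, and the cells with many rule UMIs stood well above both. Of the 74 mitosis UMIs of the 11 IR cells just inside, 45 lay in 1 cell of 18357 UMIs. Another of these cells held 47086 UMIs, of which 6 were of mitosis genes. Median depths just inside and just outside were 1702.5 and 7559 UMIs in the control library and 7866 and 4363 in the IR library. The part of depth in these levels was not tested.

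Cycling cells made up 0.622% of the control cells (0.385 to 0.949) and 1.23% of the IR cells (0.950 to 1.56), a ratio of 1.98 (1.19 to 3.41). They were deeper than the others, with a median of 5037 UMIs against 2904 in the control library and 8749 against 2453 in the IR library, and the deepest held 52986 and 47086 UMIs. With each cell thinned to 1000 UMIs, 10 of 3018 control cells (0.331%, 0.159 to 0.609) and 20 of 4794 IR cells (0.417%, 0.255 to 0.644) met the rule, after 360 control cells with 3 members and 492 IR cells with 7 members were left out as too shallow. The gap between the libraries was smaller in the thinned cells, and these intervals overlap. Among cells with 5000 to 10000 UMIs, 5 of 331 control cells (1.51%) and 22 of 400 IR cells (5.50%) were cycling, and among deeper cells 6 of 309 (1.94%) and 26 of 269 (9.67%). The deep cells were not the same mixture in both libraries. Of the cells with 10000 or more UMIs 5 of 309 control cells (1.62%) and 23 of 269 IR cells (8.55%) belonged to a T-like cluster (cluster 3, below), which gave 4 of the 6 and 20 of the 26 cycling cells there, and 54.7% and 42.0% to an epithelial cluster (cluster 5, below) whose median depth was 23922 UMIs among control cells and 6387 among IR cells. Without cluster 3 the shares were 2 of 304 (0.658%, 0.0798 to 2.36) and 6 of 246 (2.44%, 0.900 to 5.23), intervals that overlap. Below 5000 UMIs the shares were between 0.243% and 0.833% in the control library and between 0.202% and 1.42% in the IR library. Scrublet, which scores likely doublets (2 cells in 1 droplet), called 32 control cells (0.947%) and 1 IR cell (0.0189%), none of them cycling. The IR figure is too low for the caller to be taken as working there, and 1 control and 3 IR cycling cells were among the 6% of cells with the highest scores.

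**Figure D1:**
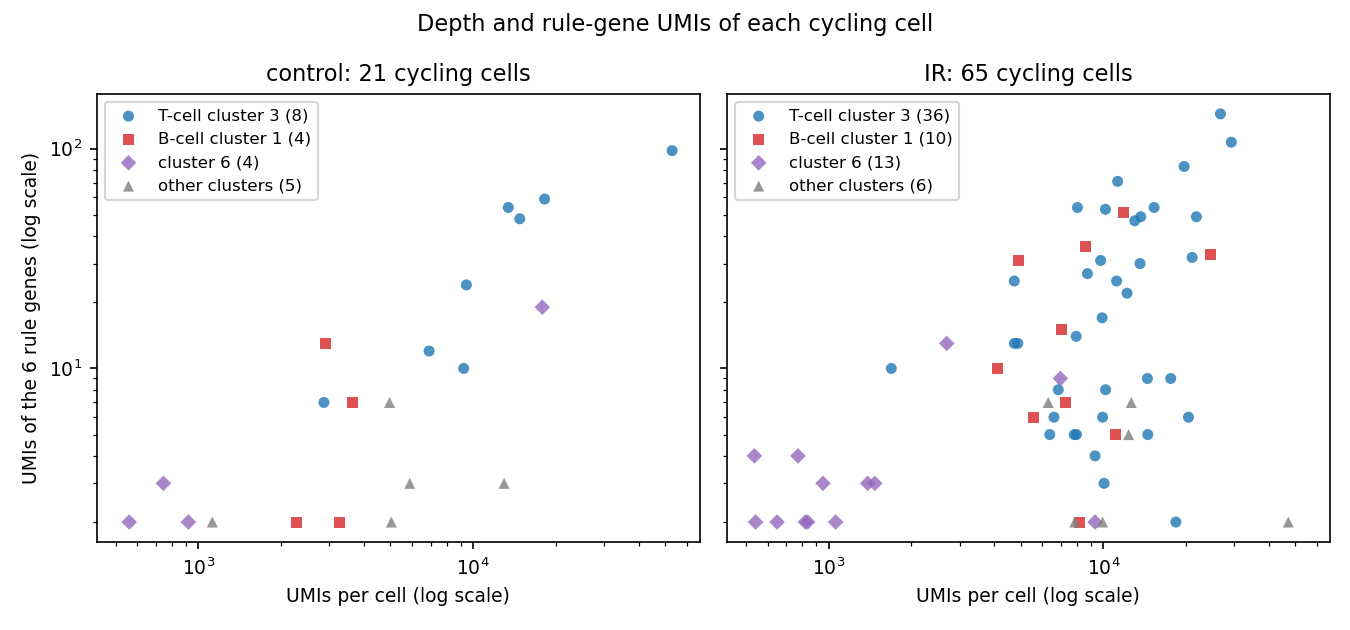
Each point is a cycling cell, with its UMIs on the x axis and the summed UMIs of the 6 rule genes on the y axis (both log scales), control on the left and IR on the right, by cluster. Cells of the T-like cluster 3 reach 98 (control) and 144 (IR) rule UMIs, while most cells of cluster 6 lie at the shallow end with 2 to 4.

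**Figure D2:**
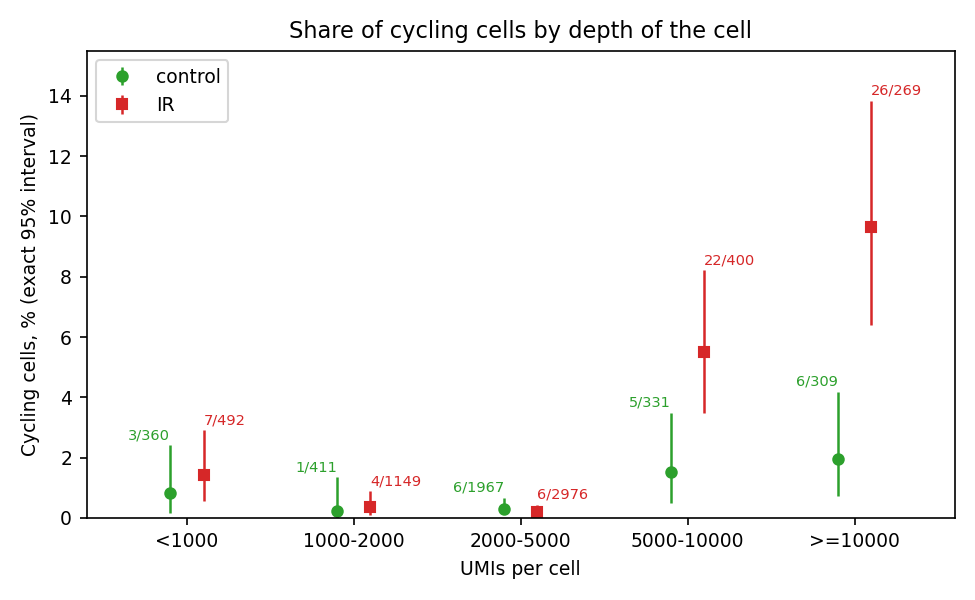
Share of cycling cells among cells of each range of UMIs (x axis) in percent (y axis, bars are exact 95% intervals), with members over cells beside each point. In cells of 5000 UMIs and above the IR library lies higher (5.50% and 9.67%) than the control library (1.51% and 1.94%).

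To find the lineages, the cells were clustered on variable genes without the genes of the cycle lists, which gave 14 clusters, and a cluster was called "like" a cell type from that type's markers. The cycling cells lay mostly in 3 of them. Cluster 3 was T-like with all 10 T-cell markers, and Foxp3, Tnfrsf4, Ikzf2 and Ctla4, genes of regulatory and activated T-cells, led it. It held 8 cycling cells of 215 in the control library (3.72%, 1.62 to 7.20) and 36 of 540 in the IR library (6.67%, 4.71 to 9.11), a ratio of 1.79 (0.819 to 4.46). The B-like cluster 1 held 4 of 841 (0.476%, 0.130 to 1.21) and 10 of 841 (1.19%, 0.572 to 2.18), a ratio of 2.50 (0.721 to 10.9). Cluster 6, led by Jchain, Igkc, Ighm and Mzb1, genes of antibody-secreting cells, held 4 of 110 (3.64%, 1.0 to 9.05) and 13 of 298 (4.36%, 2.34 to 7.34), a ratio of 1.2 (0.371 to 5.05). Within none of the 3 clusters did the counting interval of the ratio leave out 1. Cluster 3 gave 38.1% of the control cycling cells (18.1 to 61.6) and 55.4% of the IR cycling cells (42.5 to 67.7), cluster 1 gave 19.0% and 15.4%, and cluster 6 gave 19.0% and 20%. These shares rest on a clustering without the cycle genes: with them, cluster 3 had 0 control and 0.179% IR cycling cells. Cluster 6 then held 14 of the 21 and 55 of the 65 members, beside 4 and 13 here.

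Other lymphoid clusters held few or no cycling cells. The largest T-like cluster, cluster 0 (Lef1, Dapl1 and Igfbp4), held 1 of 733 in the control library and 0 of 1928 in the IR library, which allows a share of up to 0.156%. The clusters named T-like (0, 3 and 12) held 9 of 994 control cells (0.905%) and 36 of 2511 IR cells (1.43%, 1.01 to 1.98). Cluster 4 had all 10 T-cell markers too but stayed unnamed, since an NK marker (Eomes) and no T-cell marker was among the 10 genes that led it (Gzmm and Klrc1 among them). It held 0 of 218 and 1 of 399 and is in neither the T-like cells nor their others below, and with it the T-like shares were 0.743% (0.340 to 1.40) and 1.27% (0.897 to 1.75). The NK-like cluster 11 held 0 of 34 and 1 of 80, and the T-like cluster 12 (Trdv4 and Trdc, gamma-delta receptor genes) 0 of 46 and 0 of 43. By its own markers the 1 cycling cell of cluster 11 was a T-cell.

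In the epithelium cycling cells were nearly undetected. The acinar-like cluster 2 had all 9 acinar markers, among them the secreted Amy1 and Bpifa2, but the genes that led it were the haemoglobin genes Hbb-bt, Hbb-bs and Hba-a1, so it is not a set of acinar cells free of other RNA. It held 0 of 404 control and 0 of 397 IR cells, which allows shares of up to 0.743% and 0.756%. Cluster 7, which carried genes of both duct types (Klk1, Dcpp2) and stayed unnamed, held 0 of 192 and 0 of 206, with limits of 1.56% and 1.46%. Cluster 5, unnamed and led by genes that include Etv1 and Epha5, held 0 of 267 and 1 of 256. This 1 cell had 47086 UMIs, the most of any cycling cell of the IR library, of which 2 were of rule genes. It had 7 of the 8 Etv1+ epithelial markers beside 7 of the 8 endothelial, 4 plasma-cell and 4 macrophage or monocyte markers and no call of its own. The limits cover the rule as applied at these depths and not slower division.

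The remaining clusters held 0 to 2 cycling cells each in a library. Cluster 8, unnamed, had all 8 endothelial and all 8 myoepithelial markers and was led by genes that include the stromal Pdgfra and Mfap5, and held 1 of 129 and 1 of 83. The macrophage-like or monocyte-like cluster 9 held 1 of 105 and 0 of 83, and cluster 13 (S100a8 and S100a9) 1 of 40 and 0 of 44. The dendritic-like cluster 10 held 1 of 44 and 2 of 88, but by their own markers all 3 of these cells were T-cells.

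At 1000 UMIs per cell, cluster 3 kept 6 of 212 control cells (2.83%, 1.05 to 6.06) and 13 of 527 IR cells (2.47%, 1.32 to 4.18), cluster 1 kept 2 of 827 and 4 of 817, and cluster 6 kept 0 of 35 and 3 of 86. The order of the libraries within cluster 3 thus turned in the thinned cells, within wide intervals. It did not turn in the ranges of 5000 UMIs and above without thinning. Among cells of cluster 3 with 5000 to 10000 UMIs, 3 of 19 control cells (15.8%) and 12 of 38 IR cells (31.6%) were cycling, and among deeper cells 4 of 5 and 20 of 23 (87.0%).

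Free RNA in droplets can give a stray UMI. At least 1 rule UMI was found in 5 of 404 control (1.24%) and 5 of 397 IR acinar-like cells (1.26%, median depths 5414 and 5226 UMIs), in 1.36% and 1.92% of cluster 0, and in 5.80% and 6.35% of the cells of cluster 3 that were not cycling (median depths 2712 and 2326 UMIs). The acinar-like cells held no member. The cycling cells of cluster 3 were deeper than these, with medians of 11434 and 10178 UMIs, and the part of stray UMIs in the members was not tested.

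**Figure D3:**
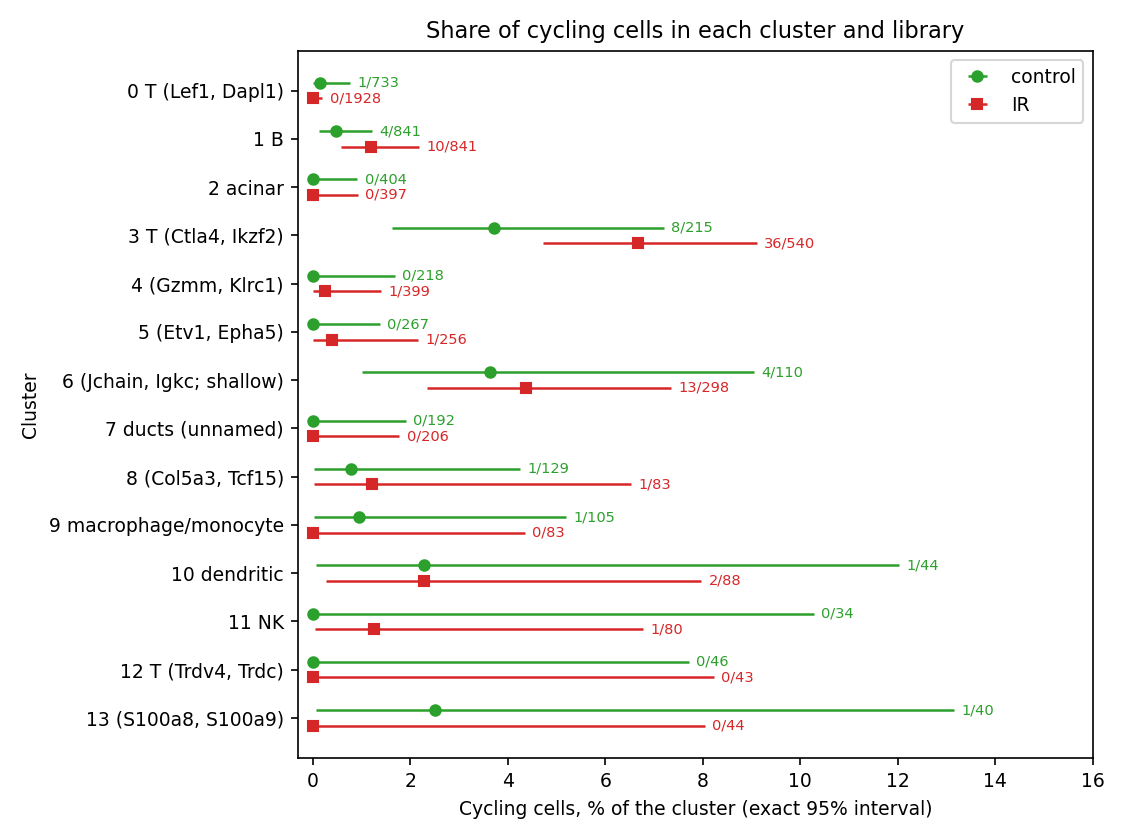
Share of cycling cells (x axis, percent of the cluster, with exact 95% intervals) in each of the 14 clusters (y axis) in the control and the IR library, with members over cells beside each bar. Clusters 3 and 6 lie highest among clusters of more than 100 cells in each library, and acinar-like and duct clusters are at 0.

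Each cycling cell was also called by its own markers. T-cells were 12 of the 21 control members (57.1%) and 39 of the 65 IR members (60.0%), and B-cells were 4 and 13 (20%). Of control cells called T-cell by markers 0.949% were cycling and of such IR cells 1.27%, and of those called B-cell 0.482% and 1.58%. In cluster 3 all 8 control members and 34 of the 36 IR members were T-cells by their own markers. The other 2 IR members were called B-cells, had 19675 and 21802 UMIs with all 6 rule genes, and held all 83 UMIs that cycling cells of cluster 3 had of Rgs13, a gene of germinal-centre B-cells.

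Cycling cells of the T-like cluster 3 were a mixture of T-cell kinds. Their depth ran from 2863 through 11434 to 52986 UMIs in the control and from 1691 through 10178 to 29212 UMIs in the IR library. Among the 8 control members Cd4 alone was seen in 4, Cd8a or Cd8b1 alone in 3 and neither in 1. Among the 36 IR members Cd4 alone was seen in 13, Cd8 genes alone in 3, both in 3 and neither in 17, or in 15 of the 34 that were T-cells by their own markers. Foxp3, the transcription factor of regulatory T-cells, had 12 UMIs in 3 of the 8 control members and 13 UMIs in 9 of the 36 IR members, against 41 of 207 and 92 of 504 of the others. Ctla4, an inhibitory receptor of activated and regulatory T-cells, was seen in 7 of 8 and 26 of 36. Icos, a co-stimulatory receptor, was seen in 8 of 8 and 25 of 36. The others were shallower (medians of 2712 and 2326 UMIs), and Ctla4 led the whole cluster. These counts therefore do not show that either gene is particular to cycling cells. The regulatory list was lower in CPM in cycling cells than in the others of cluster 3, with a ratio of 0.544 (0.464 to 0.634) in the control and 0.443 (0.402 to 0.487) in the IR library. Gzmb, a killing enzyme of cytotoxic cells, had 38 UMIs in 4 of the 8 control members and 1 UMI in 1 of the 36 IR members. With cells of 2 pooled mice in each library, it is not known how many mice gave these cells.

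Cycling B-like cells of the IR library carried RNA of a gene of the germinal centre. Rgs13, a regulator of G protein signalling, had 53 UMIs in 6 of 10 cycling cells and 67 UMIs in 18 of 831 others, a CPM ratio of 17.6 (12.1 to 25.7). In the control library Rgs13 had 4 UMIs in 2 of 4 cycling cells and 9 UMIs in 7 of 837 others. Gcsam and S1pr2, also genes of germinal-centre B-cells, were each seen in 2 of the 4 control members, against 0 and 1 of the others, and Mef2b in none of the members. Cycling cells were deeper than others in the IR library (7743 against 2175 UMIs at the median) and less so in the control (3080 against 2539).

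In the cycling B-like cells 17 of 23 heavy-chain UMIs of the control library (73.9%) and 514 of 524 of the IR library (98.1%) were of Ighm, the gene of the IgM class. The other UMIs were 6 of Ighd in the control library, and 3 of Ighd and 7 of IgG genes in the IR library. Ighm had its 514 UMIs in all 10 IR members, 40.9% of them in 1 cell, or 5525 CPM against 2240 in the others. Jchain, which joins IgM and IgA into polymers, had 228 UMIs in 8 of the 10, and 75.9% of these lay in 1 cell. Klf2, which holds lymphocytes at rest, was lower in cycling cells (140 against 1657 CPM, ratio 0.0843, 0.0449 to 0.144). Among lists of other cell types, the endothelial list had 44 UMIs in the 10 cells (Plvap the most abundant), 6.96 times the level of the others. It rests on 1 cell, which had 6 of the 8 endothelial markers beside 6 of the 8 B-cell markers and no call of its own, while 2 cells had 1 marker each and the other 7 none. Tm4sf1, another endothelial gene, had 29 UMIs in 1 of them. The part of such transcripts in the result was not tested.

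The cycling cells of cluster 6 were shallow and of mixed markers. Of the 17 cells 10 had fewer than 1000 UMIs, 3 of them control and 7 IR cells, and the medians were 833 and 954 UMIs. By their own markers the 4 control cells were 2 T-cells, 1 B-cell and 1 dendritic cell. Of the 13 IR cells 7 had no call, 2 were B-cells, and 1 each was a T-cell, a dendritic cell, an Etv1+ epithelial cell and a plasma cell. Of the genes that led the cluster, Jchain was seen in 0 of the 4 and 2 of the 13, and Ighm in 0 of the 4 and 9 of the 13, with 239 UMIs in 1 cell and 1 to 9 in each of the others. No lineage is given for these cells here. Their mitosis genes were at a median of 53.6 UMIs per 10000 (control) and 43.0 (IR), and the others of cluster 6 had a median of 0 in both. The others were shallow too (medians of 764.5 and 695 UMIs), and 17.9% and 30.9% of them had any mitosis UMI. Their highest values were 26.5 (control) and 170 (IR), beside 120 and 73.8 in the members. Mitosis UMIs were seen in all 4 control members and in 11 of the 13 IR members.

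Genes of the cycle that the rule did not use were compared within a lineage, as a description, since the same cells were chosen by related genes. In the 36 cycling T-like cells of the IR library against 2475 other T-like cells, 19.4% of 9190 genes with at least 25 UMIs in the others had a ratio of CPM of 2 or more, and 16.3% one of 0.5 or less, with a median ratio of 1.12. Cycling cells held 439725 UMIs and the others 6192567. All 36 cycling cells lay in cluster 3 and 1928 of the 2475 others in cluster 0, so these ratios also hold what differs between the clusters, and values against the 504 others of cluster 3 alone are given beside them below. There 11.7% of 5543 genes were at 2 or more and 15.7% at 0.5 or less (median 1.02). Of 2780 genes with at least 25 UMIs in the cycling cells and UMIs in 10% of them, 941 (33.8%) had a ratio of 2 or more, and 97 of these were in the cycle lists. Against the others of cluster 3 it was 697 (25.1%), with 95 in the cycle lists. In the 8 cycling cells of cluster 3 of the control library against the 207 others, 14.4% of 3102 genes were at 2 or more and 20.1% at 0.5 or less (median 0.970). In the 10 cycling B-like cells of the IR library 16% of 6442 genes were at 2 or more and 21.5% at 0.5 or less (median 1.01).

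DNA replication genes were higher in all 3 sets of cells. The list of 45 genes had 6943 CPM in cycling T-like cells of the IR library and 847 in the others, a ratio of 8.19 (7.83 to 8.57). Of 29 genes that had enough UMIs in the others, 28 were at 2 or more, with a median of 7.56. Dut, which keeps uracil out of DNA, had 326 UMIs in 32 of the 36 cells and a ratio of 15.7 (13.4 to 18.5). Slbp, which binds histone mRNA, stood at 3.38 (2.85 to 3.99), Mcm6 at 6.71 (5.51 to 8.16) and Nasp, a histone chaperone, at 2.49 (2.08 to 2.97). In cluster 3 of the control library the list was at 6.79 (6.09 to 7.58, with 4 of the 5 genes that passed at 2 or more), and in B-like cells of the IR library at 4.05 (3.58 to 4.58, with 13 of 20). Against the others of cluster 3 alone the IR value was 6.88, with 16 of 17 genes at 2 or more, Dut at 9.86 and Mcm6 at 3.46, and against T-like cells with 5000 or more UMIs it was 5.78.

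Mitosis genes were higher in the same 3 sets. The list of 55 genes had 6686 CPM in cycling T-like cells of the IR library and 621 in the others, a ratio of 10.8 (10.3 to 11.3), and all 16 genes that passed were at 2 or more (median 9.72). Smc4, a condensin subunit, stood at 3.0 (2.60 to 3.45), Tmpo, a protein of the nuclear lamina, at 8.54 (7.11 to 10.2), and the Cdk partners Cks1b and Cks2 at 38.5 (28.5 to 52.6) and 10.2 (8.29 to 12.6). Against the others of cluster 3 the list was at 8.26 with 7 of 8 genes at 2 or more, and Smc4 at 1.76. Most members of the list had too few UMIs in the others to pass. Ccnb2, a cyclin of mitosis, had 69 UMIs in 25 of the 36 cells and 3 UMIs in the 2475 others. In cluster 3 of the control library the list was at 7.67 (6.84 to 8.61) with 4 of 5 genes at 2 or more, and in B-like cells at 10.5 (9.47 to 11.7) with 6 of 7.

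**Figure D4:**
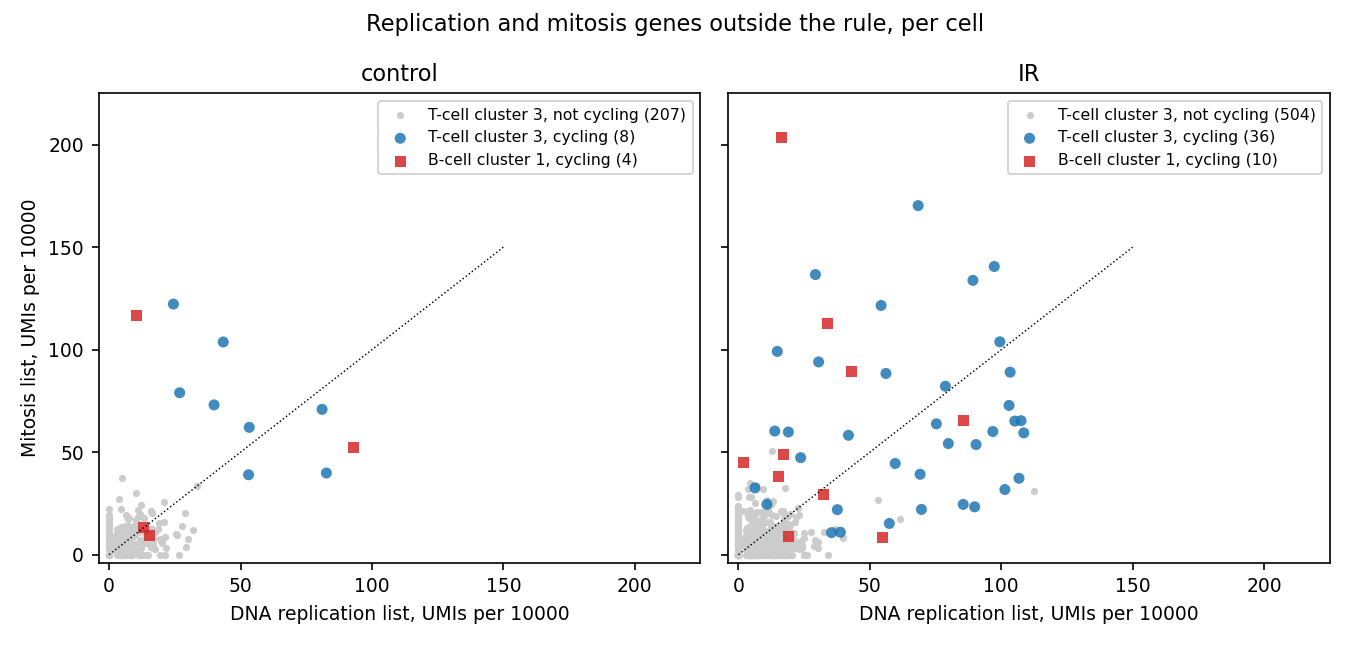
Each point is a cell, with the UMIs per 10000 of the DNA replication list (x axis) and the mitosis list (y axis), in the control (left) and the IR library (right), for cycling and other cells of cluster 3 and cycling B-like cells, and the dotted line marks equal levels. Cycling cells spread to both sides of the line, and nearly all other cells lie near the origin.

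Cell by cell, the 2 programmes took unequal parts. In cluster 3 mitosis genes ran from 39.0 through a median of 72.0 to 122 UMIs per 10000 in the control members and from 10.7 through 59.6 to 170 in the IR members, against medians of 6.45 and 6.81 in the others. Replication genes ran from 24.4 through 48.2 to 82.7 and from 6.27 through 69.4 to 109, against medians of 7.09 and 7.38 in the others. The highest of the others in replication genes was at 33.5 (control) and 112 (IR), the latter above every IR member. More mitosis than replication RNA was found in 5 of the 8 control and 16 of the 36 IR members. Among B-like cells mitosis genes had medians of 32.6 in 4 control and 46.7 in 10 IR members, and replication genes 14.3 and 25.6. The highest B-like others were at 46.0 (control) and 109 (IR) in replication genes, beside 93.1 and 85.5 in the members. All 8 control members of cluster 3 lay above the highest of the 207 others in mitosis genes (37.6), while 22 of the 36 IR members lay above the highest of the 504 others (50.5) and 14 did not.

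Genes of chromatin and of the spindle followed. The chromatin and histone list was at 3.97 (3.85 to 4.10) in T-like cells of the IR library, with 14 of 15 genes at 2 or more. H2afz, a histone variant, had 1660 UMIs in all 36 cells and a ratio of 2.54 (2.41 to 2.68), and Hmgb2, a chromatin protein, 1054 UMIs in all 36 and a ratio of 7.5 (6.95 to 8.09). 2810417H13Rik, the mouse gene of the PCNA-associated factor Pclaf, had 368 UMIs in 33 of the 36 cells and 19 UMIs in the others. The tubulin and stathmin list was at 6.89 (6.55 to 7.24), with 6 of 8 genes at 2 or more and 1 at 0.5 or less. Stmn1, which loosens microtubules, had 708 UMIs in all 36 cells and a ratio of 35.1 (30.5 to 40.4), and Tubb5, a tubulin, 853 UMIs and a ratio of 9.0 (8.25 to 9.82). Against the others of cluster 3 the chromatin list was at 3.08 with 10 of 12 genes at 2 or more and H2afz at 1.75, and the tubulin list at 6.62 with 4 of 6. In B-like cells the chromatin list was at 5.32 (4.96 to 5.70), with H2afx, the histone variant that marks DNA breaks, at 13.1 (10.0 to 17.1).

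Outside the lists, the genes with the highest ratios in cycling T-like cells of the IR library are named as a description, since they passed on their UMIs in the cycling cells. Esco2, which joins sister chromatids, had 35 UMIs in 11 cells against 1 UMI in the others (ratio 493, 82.8 to 20018). Aspm, a protein of the spindle pole, had 31 UMIs against 1, Ncapg, a condensin subunit, 39 against 2, and the next were Ska1, Kif15, Shcbp1, Ncaph, Cenph, Cit and Ncapg2, the last with 27 against 6.

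The list of G1 drivers was higher and the list of brakes lower. The G1 drivers were at 2.01 (1.82 to 2.23) with 5 of 7 genes at 2 or more. Cdk4, the kinase of G1, stood at 3.41 (2.78 to 4.16), Cdk6 at 3.49 and Ccnd3 at 2.04, and Ccnd2, another D cyclin, at 0.603 (0.458 to 0.781). The list of brakes was at 0.264 (0.245 to 0.283), though only 6 of 14 genes were at 0.5 or less and 4 were at 2 or more. Klf2 had 202 UMIs in 27 of the 36 cells, or 459 CPM against 3015 in the others, Btg1, an antiproliferative gene, was at 0.223 (0.195 to 0.255) and Klf6 at 0.278. Cdkn1a, the p53-induced Cdk inhibitor p21, stood at 2.26 (1.52 to 3.26) with UMIs in 8 of the 36 cells. Against the others of cluster 3 alone the drivers were at 1.71 (1.52 to 1.93) with 2 of 4 genes at 2 or more and 1 at 0.5 or less, Cdk4 at 2.79 and Cdk6 at 1.37 (0.859 to 2.13). The brakes were at 0.30 (0.278 to 0.322) there with 6 of 11 genes at 0.5 or less and 1 at 2 or more, Klf2 at 0.218, Btg1 at 0.224 and Cdkn1a at 1.09 (0.717 to 1.63). In cluster 3 of the control library the brakes were at 0.356 (0.308 to 0.409), with 6 of 7 genes at 0.5 or less, and in B-like cells at 0.314 (0.264 to 0.372), with 7 of 11.

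Genes of the response to DNA damage were mixed. The list of p53 targets was at 1.27 (1.10 to 1.46) in T-like cells of the IR library, with 1 of 12 genes at 2 or more and 2 at 0.5 or less, and below 1 against the others of cluster 3 (0.830) or against T-like cells with 5000 or more UMIs (0.943). Bax, which promotes cell death, stood at 1.68 (1.34 to 2.09) and Mdm2, which degrades p53, at 1.59 (1.08 to 2.27). In cluster 3 of the control library the list was at 0.888 (0.665 to 1.17). The DNA repair list was at 3.75 (3.39 to 4.14), with 8 of 11 genes at 2 or more, against the others of cluster 3 at 3.36 (2.95 to 3.82), and in the control library at 5.13 (4.12 to 6.38). Its most abundant gene in both was H2afx, also a chromatin gene, at 5.09 (4.195 to 6.14) and 7.03 (4.56 to 10.9).

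Genes of energy metabolism were higher, and the summed immediate early list was lower. All 12 genes of energy metabolism were at 2 or more (list ratio 2.90, 2.80 to 3.0), among them Gapdh at 3.20 and Pkm at 3.52, enzymes of glycolysis. The lymphocyte activation list was at 2.07 (2.01 to 2.14), with 7 of 16 genes at 2 or more and 1 at 0.5 or less. Npm1, a nucleolar protein, had 1485 UMIs in all 36 cells and a ratio of 2.10 (1.99 to 2.22). The immediate early list was at 0.372 (0.350 to 0.394), with 4 of 10 genes at 0.5 or less, and the interferon-stimulated list at 0.689 (0.599 to 0.789), with 5 of 8. The heat shock list was at 1.82 (1.76 to 1.89), with 3 of 9 genes at 2 or more and 3 at 0.5 or less. Against the others of cluster 3 alone 9 of the 12 genes of energy metabolism were at 2 or more (list 2.25, 2.16 to 2.35), with Gapdh at 2.18 and Pkm at 2.48. The lymphocyte activation list was at 1.36 (1.31 to 1.41) there, but 6 of its 15 genes were at 0.5 or less and 5 at 2 or more, and the median gene was at 0.616. Immediate early genes were at 0.349 (0.328 to 0.370) with 7 of 10 genes at 0.5 or less, interferon-stimulated genes at 0.353 (0.306 to 0.406) with 5 of 6, and heat shock genes at 1.87 (1.80 to 1.95).

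**Figure D5:**
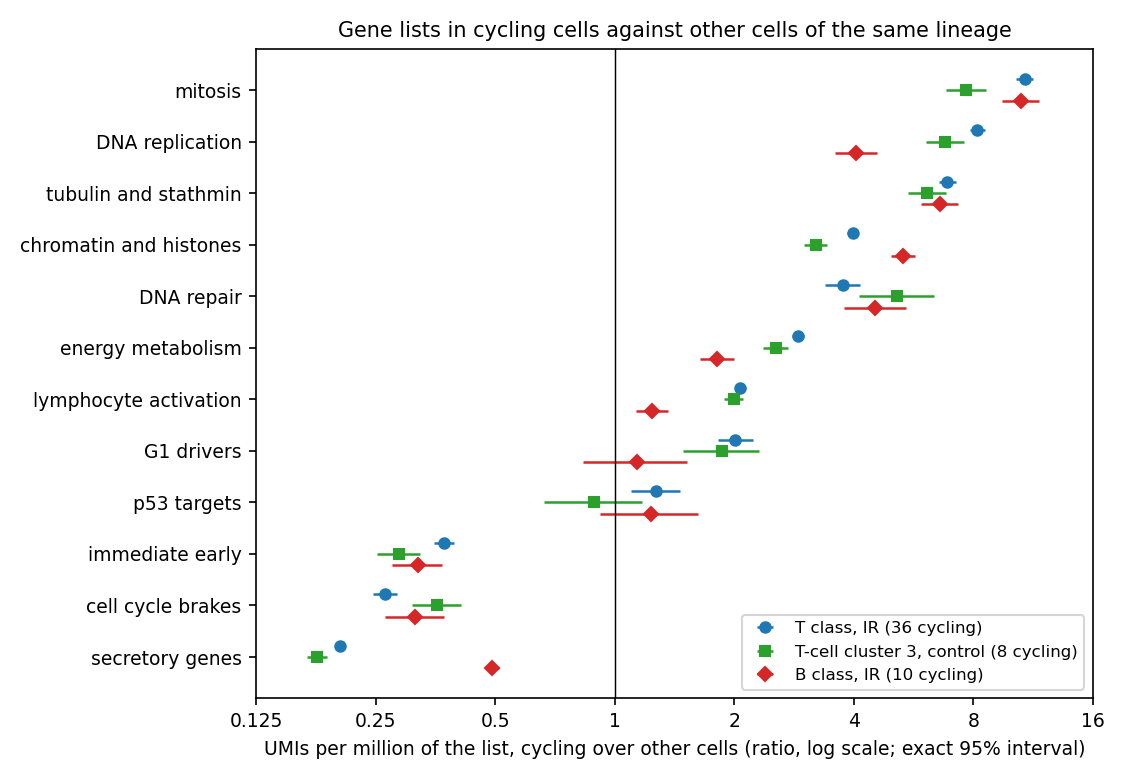
Ratio of CPM of each gene list (y axis) in cycling over other cells (x axis, log scale, bars are exact 95% intervals) for T-like cells of the IR library, cluster 3 of the control library and B-like cells of the IR library. Mitosis and replication lists lie between 4.05 and 10.8, and brakes and immediate early genes below 0.4.

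RNA of other cells also differed between cycling and other cells. The 9 acinar markers, Bpifa2 the most abundant, had 9251 CPM in cycling T-like cells of the IR library and 45733 in the others, all 9 with a ratio of 0.5 or less. Haemoglobin genes were at 0.132 (0.0995 to 0.172) there and at 1.13 (1.04 to 1.24) in cluster 3 of the control library, where 1 cycling cell held 98.7% of the Hba-a1 and 96.0% of the Hbb-bs UMIs. In cluster 3 of the control library the list of secretory genes was at 0.178 (0.168 to 0.188), and in B-like cells at 0.492 (0.473 to 0.511). Scaled to totals that did not count abundant genes, the replication list of the T-like cells was at 7.81, beside 8.19. B-cell markers were at 10.4 (8.37 to 12.95) in cycling T-like cells of the IR library, at 4.66 (3.59 to 6.09) against the others of cluster 3, and at 0.855 without the 2 cells called B-cells by their own markers. The 10 T-cell markers were at 0.929 (0.894 to 0.965), none of them at 2 or more or at 0.5 or less.

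Cycling cells of cluster 3 were set side by side between the libraries, 36 IR and 8 control, a comparison of these 2 libraries and not of the conditions. Of 1812 genes with at least 50 UMIs over both and at least 1 in each, 101 (5.57%) were at 2 or more in IR over control and 55 (3.04%) at 0.5 or less, with a median of 1.02. The rule genes were at 0.979 (0.862 to 1.11), replication genes at 1.13 (1.05 to 1.23) and mitosis genes at 1.13 (1.04 to 1.23). Of the replication genes that passed 3 of 28 and of the mitosis genes 2 of 27 were at 2 or more, and none of either list at 0.5 or less. One control cell held 52986 UMIs, 41.4% of the UMIs of the 8. Without it the rule genes, which chose these cells, were at 0.836 (0.721 to 0.973). Replication genes were then at 1.51 (1.35 to 1.69) and mitosis genes at 0.918 (0.838 to 1.01). Of 1652 genes, 182 were at 2 or more and 79 at 0.5 or less without that cell (median 1.12).

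Of the genes with the most unequal values, most had few UMIs in the control cells or had them in few cells. Cd83, a marker of activated lymphocytes, had 62 UMIs in 19 of 36 IR cells and 1 UMI in 1 of 8 control cells, a ratio of 18.0 (3.12 to 723). Fos, an immediate early factor, had 72 UMIs in 20 cells against 2 UMIs in 1 cell (10.5, 2.79 to 88.1), Tbc1d4 72 UMIs in 13 cells against 2 in 2, and Pnisr 84 UMIs in 30 cells against 3 in 3. Cd74, the invariant chain of antigen presentation, had 475 UMIs in 17 IR cells, 33.3% of them in 1 cell, and 17 in 4 control cells (8.12, 5.02 to 14.1). Without the 2 IR cells called B-cells, Cd74 had 200 UMIs and a ratio of 3.78 (2.30 to 6.61). At the other end Hba-a1 and Hbb-bs, haemoglobin genes, were at 0.0129 and 0.0429, and 98.7% and 96.0% of their control UMIs lay in 1 cell. Ccl5, a chemokine of effector T-cells, had 76 UMIs in 2 of the 8 control cells and 49 UMIs in 6 IR cells (0.187, 0.128 to 0.272). Lmna, a lamin, had 54 UMIs in 7 control and 39 in 15 IR cells (0.210, 0.135 to 0.323), and Hist1h1e, a linker histone, 56 in 7 and 45 in 20 (0.234, 0.154 to 0.352). Without the deepest control cell Cd83 was at 10.6, Fos at 6.13, Tbc1d4 at 12.3, Pnisr at 7.15 and Cd74 at 4.76, while Ccl5 was at 0.110, Lmna at 0.123 and Hist1h1e at 0.306. The cell with the haemoglobin UMIs was another one, with 13422 UMIs, and without it Hba-a1 was at 0.885 (0.313 to 3.07) and Hbb-bs at 0.963 (0.469 to 2.17), so the low values of these genes rest on that cell.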

How the data were processed

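The authors aligned the reads to mm10 with Cell Ranger (3.0.1 per the submitters' processing notes), and the deposited values are raw UMI counts per gene and barcode. From these, barcodes were kept as described above (912 control and 649 IR barcodes had too few genes, 1260 and 1858 too much mitochondrial RNA). Seurat 5.3.0 integrated the libraries by anchors and clustered them on 2000 variable genes that left out the cycle lists, with 30 components and a resolution of 0.3. A cluster took the name of the type with most markers (at least 3) at 2 times the level of other cells, and stayed unnamed where its 10 leading genes held more markers of another type. A cell took a name from at least 2 of its own markers. UMIs were summed over cells and scaled to CPM. Ratios have exact conditional binomial intervals and shares Clopper-Pearson intervals (95%, scipy 1.17.1). A count of 0 allows 3 divided by the cells. This limit is lower than the upper end of the exact interval drawn in the figure (0.156% beside 0.191% for cluster 0 of the IR library). Scrublet ran in scanpy 1.11.5, and doublets were not removed. Steps were tested on simulated data.

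The members, gene lists and settings were chosen with earlier results of these data known. Named genes were the 4 of each list with most UMIs in cycling T-like cells of the IR library, the 10 highest ratios outside the lists and the 5 highest and 5 lowest of IR over control. Cdkn1a, Ccnb2, Tm4sf1 and the remaining genes named in the text were chosen after their values were seen. The planned comparison of IR with control needed 20 members per lineage in each library, which no lineage had, so cluster 3 was used instead. Some results are not reported here.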

Additional observations from a re-analysis of the deposited data

Results flagged for a closer look

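Among the 1858 IR barcodes that were removed for more than 5% mitochondrial UMIs, 11 (0.592%, exact 95% interval 0.296 to 1.06) met the rule for cycling cells. They stand out because the main setting leaves these barcodes out and because the share was higher than in the control library, where 2 of 1260 removed barcodes (0.159%, 0.0192 to 0.572) met the rule, though the intervals overlap. Both shares were lower than among the kept cells (1.23% in the IR and 0.622% in the control library).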

How the results depend on the processing

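No paired analysis was possible because each group has 1 library and no result comes from a test. Of 220 values of shares, makeup, list ratios and gene counts under an alternative, 172 moved by less than their counting interval (for gene counts, by less than 1.5 times) and 48 by more. Of 198 values of single genes and other lists, 123 moved less, 69 more and 6 changed direction. The causes of these moves were not tested. Each value below is in the order control, IR unless 1 library is named.

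With cycle genes kept among the variable genes, cluster 6 held 14 of 21 and 55 of 65 cycling cells (66.7% and 84.6%). In the main setting it held 4 and 13. Of the cells of cluster 6, 10.2% and 15.6% were cycling with the cycle genes kept. The T-like clusters then had 0 and 0.0405% cycling cells (0 and 1.54% of the members), cluster 3 had 0 and 0.179% (0 and 1.54%), and the B-like cluster of the IR library 0.359% (4.62%). With a mitochondrial limit of 10% the cluster nearest to cluster 6 shared 32.0% of the cells of both together and had 0.845% and 1.495%, and with no such limit the nearest shared 37.7% and held 4.35% and 7.89% of the members, so these are largely other cells. With at least 500 genes per cell the B-like cluster held 28.1% of the IR members, and no cluster matched cluster 6. A rule of at least 3 UMIs from at least 3 rule genes gave 0.927% in the IR library, 1.68% of its cluster 6 and 10.2% of its members there. Thinned to 1000 UMIs, the shares were 0.331% and 0.417%, cluster 6 of the control had 0 (0 of its members), and the IR library had 0.529% in the T-like clusters, 2.47% in cluster 3 and 0.490% in the B-like cluster.

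In T-like cells of the IR library the mitosis ratio was 9.92 thinned, 8.26 against the others of cluster 3 and 8.60 against others with 5000 or more UMIs. The replication ratio was 6.88 and 5.78 against these and 7.81 without abundant genes. Thinned, replication was 5.57 in cluster 3 of the control, and mitosis 14.1 and replication 4.76 in B-like cells. Directions changed for Mdm2 (0) and Rpa1 (0.646) when thinned, for p53 targets against the others of cluster 3 (0.830) and the deep others (0.943), for B-cell markers without B-called cells (0.855), and for mitosis genes of cluster 3, IR over control, without the deepest control cell (0.918, beside 1.13). The order of the cluster 3 shares also turned when thinned, from 3.72% and 6.67% to 2.83% and 2.47%. Genes high in these cells numbered 1449 and 400 at ratios of 1.5 and 3, and 1636 with at least 10 UMIs. For cluster 3, IR over control, the higher and lower genes numbered 434 and 205 with at least 20 UMIs, 272 and 208 at a ratio of 1.5, 27 and 14 at a ratio of 3, and 182 were higher without the deepest control cell. The comparisons with the others of cluster 3, with deep others, without B-called cells, without the deepest control cell, without the cell of most haemoglobin UMIs and with cluster 4, and those of control and B-like cells, were chosen after seeing the data. With 21 control members, the share of cluster 3 of the control library rests on 8 cells.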
